A study of Saccharomyces cerevisiae with 10 samples.

Results

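XUTs are long noncoding RNAs of budding yeast, Saccharomyces cerevisiae, that were annotated because they accumulate without the exonuclease Xrn1. Among the 1457 XUTs measured at a mean normalised density of at least 0.034, 471 rose more after depletion of the RNA helicase Mtr4 than after deletion of XRN1. The mean density was taken over the 10 libraries, and 1664 XUTs were listed among 10891 features. For each XUT the Xrn1 change was the log2 ratio of xrn1 to WT, and the Mtr4 change the log2 ratio of tet-MTR4-Dox to WT-Dox, both from mean densities with 0.006 added. The 471 XUTs are those whose Mtr4 change exceeded the Xrn1 change by more than 1, which is a factor above 2. The set was thus chosen by measured values, the mean densities of these 4 groups, and those values describe it below without a test.

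Xrn1 degrades RNA from the 5′ end in the cytoplasm, mostly after the cap has been removed. Mtr4 unwinds RNA in the nucleus and, within the TRAMP complex, hands it to the exosome, the main nuclear 3′ to 5′ nuclease. The nuclear route is known for removing CUTs (cryptic unstable transcripts) and NUTs (Nrd1-unterminated transcripts), whereas XUTs are known as targets of the cytoplasmic route, and many of them lie antisense to genes. Dbp2 is a DEAD-box RNA helicase that acts on newly made RNA.

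Total RNA was depleted of ribosomal RNA and sequenced with strand information in 5 groups of 2 biological replicates, all of mating type MATa. WT, xrn1 and dbp2 carried the strain name BY4741. WT was his3Δ1 leu2Δ0 met15Δ0 ura3Δ0, xrn1 added xrn1Δ::kanMX4, and dbp2 was given as his3Δ0 leu2Δ0 met- lys? ura3Δ0 with dbp2Δ::KanMX6. WT-Dox and tet-MTR4-Dox were BMA64-1A, with the alleles can1-100, ura3-1, trp1Δ2, his3-11,15 and ade2-1 and a mutant allele of LEU2, and the latter carried kanMX6- tetOFF::MTR4 in addition. Only these groups received doxycycline, 10 µg/mL over 6 hours, which turns the tetOFF gene off. The Mtr4 comparison is thus a depletion in another strain background, and the Xrn1 comparison is a deletion.

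Libraries held 15971468 to 33521600 reads summed over features, of which 1.35 to 3.14% fell on ERCC spike-in RNAs. XRN1 density was 0.102 and 0.106 in xrn1 against 2.49 and 2.28 in WT. DBP2 density was 0.00313 and 0.00326 in dbp2 against 3.49 and 3.41 in WT. MTR4 density was 0.429 and 0.469 in tet-MTR4-Dox against 1.49 and 1.30 in its control, a fall of 1.62 ± 0.07 (SE) on the log2 scale (limma, adjusted p = 5.0e-09), so its mRNA was reduced but not lost. The summed density of 6 genes specific to MATa cells was 22.5 to 86.8, against 0.145 to 2.18 for 4 genes specific to MATalpha cells. Strain markers differed beyond the deleted or depleted gene. LYS2 density was 0.0005 and 0.00035 in dbp2 against 1.10 and 0.999 in WT, and MET17 density 1.75 and 1.64 against 0.00125 and 0.00048. TRP1 density was 0.129 and 0.128 in tet-MTR4-Dox, against 0 and 0.00069 in its control, and the part of such differences in any result was not tested.

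By median density, the 471 XUTs were scarce in both wild types and most abundant without Mtr4, though not every one of them was. Their median density was 0.0219 for WT and 0.0165 for WT-Dox. It was 0.0877 without Xrn1, 0.0513 without Dbp2 and 0.356 under Mtr4 depletion. They took 0.0657 and 0.0654% of reads in WT and 0.0638 and 0.0662% in WT-Dox, then 0.111 and 0.112% in xrn1 and 0.135 and 0.134% in dbp2. In tet-MTR4-Dox their share was 0.698 and 0.649%. XUT0467 alone held 3977 of the set's 12313 reads in WT replicate 1 and 4172 of 10183 in WT-Dox replicate 1. In tet-MTR4-Dox replicate 1 it held 14698 of 111963, so this XUT weighs heavily in the shares, most in the controls. More RNA per cell and more cells making the RNA cannot be told apart in such bulk samples.

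The set's Xrn1 change was below that of all measured XUTs and its Mtr4 change above, as the rule requires of their difference. The Xrn1 change ran from -0.12 to 3.48 with a median of 1.80, and 427 of 471 (90.7%) were at least 2-fold higher in xrn1, against 96.8% of all measured XUTs. The median over all measured XUTs was 2.47. The Mtr4 change ran from 2.01 to 7.23 with a median of 3.94, against 2.81 over all measured XUTs. All 471 were at least 4-fold higher in tet-MTR4-Dox and 223 (47.3%) at least 16-fold, against 76.4 and 16.5% of all measured XUTs. Both xrn1 libraries lay above both WT libraries for 468 of the 471 (96.2% of all features did so), and both tet-MTR4-Dox libraries lay above both WT-Dox libraries for all 471 (92.7% of all features). None of the 471 lay below both controls in either comparison, as 1.3 and 3.85% of all features did. Of all 1457 measured XUTs, 99.8 and 99.0% lay above both controls, and 0 and 1 lay below both. These counts were thus not particular to the set.

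**Figure D1:**
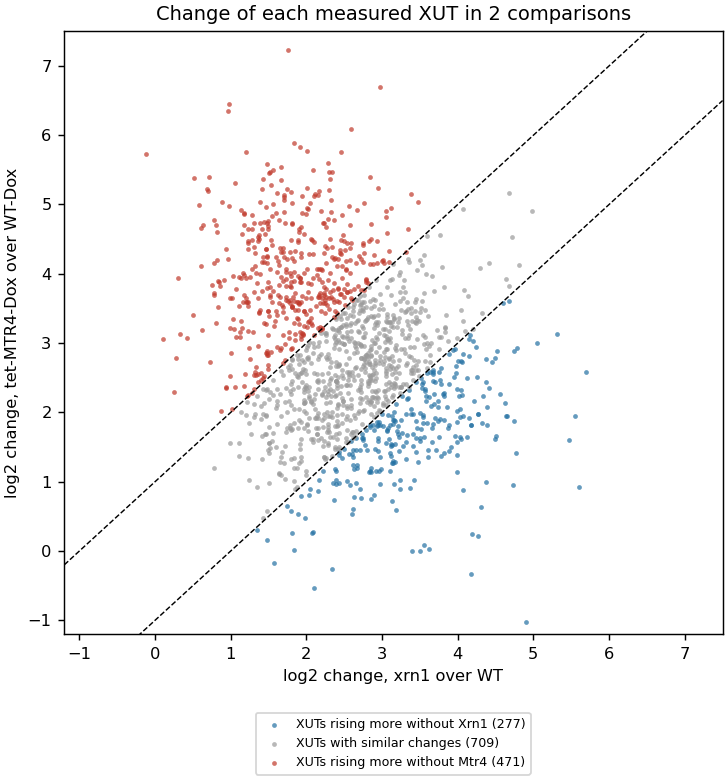
Each point is 1 of 1457 measured XUTs, by its log2 change in xrn1 over WT (horizontal) and in tet-MTR4-Dox over WT-Dox (vertical), and the dashed lines mark a difference of 1 between the changes. The 471 XUTs above the upper line spread from -0.12 to 3.48 along the Xrn1 axis and start at 2.01 on the Mtr4 axis, where the lines themselves set the separation from the 709 and 277 others.

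The remaining measured XUTs fell into 709 with changes within 1 of each other and 277 whose Xrn1 change was larger by more than 1. Median densities in WT were alike in the 3 sets, at 0.0219 in the 471, 0.0190 in the 709 and 0.0223 in the 277. In WT-Dox, the control of the Mtr4 change, they were 0.0165, 0.0183 and 0.0220, lowest in the 471. In xrn1 they were 0.0877, 0.142 and 0.280, and in tet-MTR4-Dox 0.356, 0.147 and 0.0910. On the scale of the fit across all features, the Xrn1 change of the 471 XUTs (median 1.80) was near that of NUTs (1.79), of protein-coding genes (1.91) and of all features (1.90) and above that of CUTs (1.27). Their Mtr4 change (median 3.94) lay between those of NUTs (3.59) and CUTs (4.33), while protein-coding genes had a median of 0.84.

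The border of the set was not sharp. Just inside it, XUT0647, XUT0622 and XUT0444 differed by 1.00 each, and just outside it XUT0378 differed by 0.999, XUT0725 by 0.99 and XUT0813 by 0.99. When 1 library was taken from each of the 4 groups, in all 16 combinations, the difference of XUT0647 ran from 0.49 to 1.51. In all 16 combinations 348 of the 471 (73.9%) stayed above 1. Read numbers were low. The median XUT of the set had 12 and 15 reads in WT, 8 and 10 in WT-Dox, against 130 and 168 under Mtr4 depletion. Over both WT-Dox libraries together, 32 of the 471 had at most 3 reads, and 5 had none. With libraries rescaled to equal medians of protein-coding genes, the same rule gave 824 XUTs, all 471 included, and with a 4 times higher minimum density 172.

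XUT1033, on chromosome IV between LYS20, a homocitrate synthase of lysine synthesis, and INH1, an inhibitor of the mitochondrial ATPase, had the largest difference, 5.85. Neighbours named here are the nearest gene rows in the table, which follows genome order, and whether an XUT overlaps or lies antisense to them was not analysed here. Its density was 0.0432 and 0.0400 in WT against 0.0535 and 0.0222 in xrn1. It was 0.03396 and 0.0323 in WT-Dox, against 2.13 and 2.01 under Mtr4 depletion. The xrn1 libraries overlapped WT, while both Mtr4-depleted libraries stood far above every other library, 53.1-fold over WT-Dox on the scale with 0.006 added. It was the only XUT of the set with an Xrn1 change below 0. Folds of single features given below are also on the scale with 0.006 added, so they differ from plain ratios of the densities.

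XUT1083, between UPC2, a regulator of sterol synthesis genes, and AHA1, an Hsp90 co-chaperone, on chromosome IV, followed with a difference of 5.47. Its density was 0.0404 and 0.0474 in WT against 0.104 and 0.0803 in xrn1. It was 0.0410 and 0.0352 in WT-Dox, against 3.90 and 3.81 under Mtr4 depletion. Here the xrn1 libraries were both above WT, with an Xrn1 change of 0.98 and an Mtr4 change of 6.45.

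XUT1358, on chromosome X between JJJ2 and FMP33, had the highest Mtr4 change, 7.23, with an Xrn1 change of 1.76. Its density was 0.0320 and 0.0487 in WT against 0.164 and 0.138 in xrn1. It was 0.0195 and 0.0124 in WT-Dox, against 3.37 and 3.22 under Mtr4 depletion. The WT-Dox values rest on 5 and 4 reads and the tet-MTR4-Dox values on 608 and 803, so the fold rests on few control reads.

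XUT0766 lay on chromosome XIV between KSH1 and EFM6 and within 3 rows of the snoRNA snR66. Its densities were 0.00818 and 0.0130 in WT-Dox, against 1.25 and 1.44 under Mtr4 depletion. Its WT libraries were at 0.0149 and 0.00567 and its xrn1 libraries at 0.0301 and 0.0214. The xrn1 libraries were above both WT libraries by a small margin, and the difference between the changes was 5.39.

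The next 4 by difference behaved alike, with Xrn1 changes of 0.52 to 1.20 and Mtr4 changes of 5.22 to 5.76. XUT0029, on chromosome II between PDR3, a regulator of drug resistance, and UTP20, a ribosome assembly factor, went from 0.0532 and 0.0632 in WT-Dox to 2.50 and 2.84. XUT0984, between RPB5, a subunit shared by the nuclear RNA polymerases, and CNS1, an Hsp90 co-chaperone, went from 0.0291 and 0.0395 to 1.83 and 1.56. In both, the xrn1 libraries (0.0885 and 0.0694, and 0.0481 and 0.0597) exceeded WT (0.0483 and 0.0583, and 0.0265 and 0.0346) without overlap. XUT0233, between DYN2, a dynein light chain, and SNX41, a sorting nexin, was at 0.0187 and 0.0178 in WT-Dox, against 1.39 and 1.22 under Mtr4 depletion. XUT1198, between YPT32, a Rab GTPase, and MIG2, a repressor of glucose-repressed genes, was at 0.0362 and 0.0215 and at 1.35 and 1.24.

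**Figure D2:**
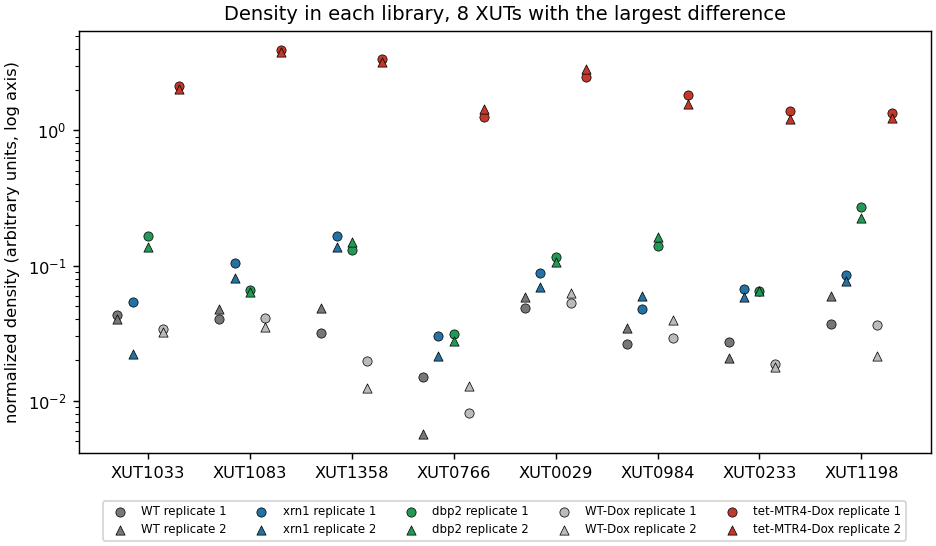
Normalised density (log axis) in each of the 10 libraries is drawn for the 8 XUTs with the largest difference between the changes, with circles for replicate 1 and triangles for replicate 2. In all 8 the tet-MTR4-Dox libraries lie between 1.22 and 3.90, and the WT, xrn1, dbp2 and WT-Dox libraries lie at or below 0.269.

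XUT0649 had the highest density without Mtr4, at 16.1 and 14.2, and was also among the XUTs of the set with a large Xrn1 change. WT held 0.102 and 0.0830, xrn1 0.819 and 0.720, and WT-Dox 0.131 and 0.149. Its density was 7.86-fold higher without Xrn1 and 104-fold higher without Mtr4, with no overlap in either. The neighbouring rows, TAR1 and YLR154C-G, lie in the ribosomal DNA repeats on chromosome XII, and how reads of repeated copies were counted is not given in the sources used here.

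The lowest Xrn1 changes among XUTs of at least the set's median density belonged, after XUT1033, to XUT0928, XUT1754 and XUT0865. XUT0928, a transcript of the 2-micron plasmid, a multicopy circle carried by most laboratory strains, was at 0.187 and 0.211 in WT against 0.223 and 0.251 in xrn1. It was at 0.193 and 0.163 in WT-Dox, against 0.874 and 0.914 under Mtr4 depletion, a 4.88-fold difference. XUT1754, between the phosphatase gene PPQ1 and CBC2, which encodes a cap-binding subunit, overlapped between xrn1 (0.0200 and 0.0124) and WT (0.0173 and 0.0066).

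XUT1754 then stood at 0.0238 and 0.0226 in WT-Dox, against 0.433 and 0.449 under Mtr4 depletion, 15.3-fold higher. XUT0865, between YIG1 and CSM4, was at 0.0450 and 0.0487 in WT against 0.0657 and 0.0646 in xrn1, and at 0.0443 and 0.0413 in WT-Dox against 0.411 and 0.401 in tet-MTR4-Dox. All 4 XUTs thus had densities close to WT in xrn1 and well above the control in tet-MTR4-Dox. For XUT1754 the closeness rests on 4 and 2 reads in WT and 4 and 2 in xrn1. XUT1033 had 14 and 17 reads in WT and 15 and 5 in xrn1. At such read numbers a moderate change without Xrn1 could be missed.

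Abundant transcripts of the set included XUT0927, also on the 2-micron plasmid, and XUT0467, between CSS1 and SOA1 on chromosome IX. XUT0927 was at 0.345 and 0.288 in WT against 0.539 and 0.596 in xrn1. It was 0.278 and 0.260 in WT-Dox, against 4.31 and 3.86 under Mtr4 depletion. XUT0467, the longest of the set at 5302 bases, was at 0.695 and 0.639, 1.26 and 1.31, 0.802 and 0.755, and 4.01 and 4.06 in the same order. The plasmid gene R0010W was higher in all 3 mutants (WT 0.462 and 0.488, xrn1 5.40 and 5.20, dbp2 6.35 and 6.21, WT-Dox 0.518 and 0.445, tet-MTR4-Dox 3.37 and 2.63), and the part of plasmid copy number in the plasmid XUTs was not tested.

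The XUTs of the set were short. Feature lengths were recovered from the densities, since each density equals whole reads over a length and a library factor. The median length was 450 bases in the set (quartiles 289.5 and 784.5), 648 among the 709 XUTs with similar changes and 958 among the 277 that rose more without Xrn1. Below 300 bases were 129 of the 471 (27.4%), 110 of the 709 (15.5%) and 30 of the 277 (10.8%). Above 1000 bases were 69 (14.6%), 210 (29.6%) and 134 (48.4%). The shortest, XUT1586, spanned 117 bases.

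The share of measured XUTs that belonged to the set fell from 45.9% in the shortest quartile (102 to 347 bases) through 36.6 and 30.2% to 16.5% in the longest (1083 to 5923 bases). By quartile of WT density the shares were 27.1, 32.7, 34.6 and 34.9%, a narrower range. Across all 1457 XUTs, Spearman's rho between length and the difference of the changes was -0.29, with 0.33 for the Xrn1 change and -0.16 for the Mtr4 change. These XUTs share libraries, so no p is given. Short features also collect fewer reads, and among XUTs with a mean of at least 50 reads the median lengths were 729, 1100 and 1302 bases in the same order (240, 352 and 192 XUTs).

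**Figure D3:**
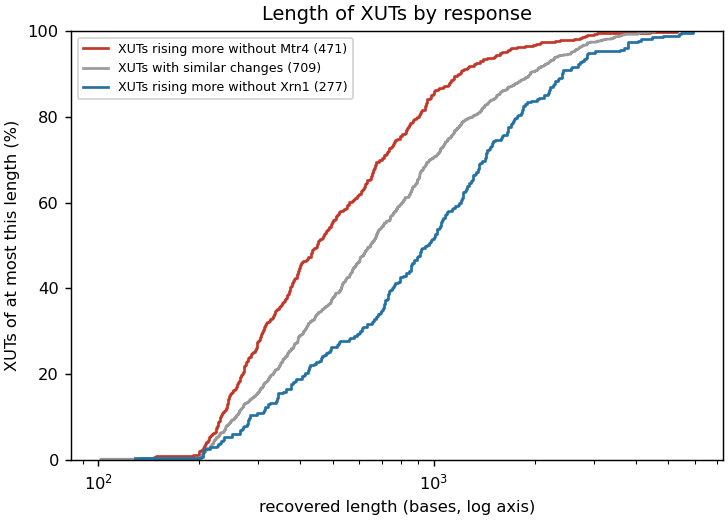
The curves give the percentage of XUTs (vertical) of at most a given recovered length in bases (horizontal, log axis) for the 471, 709 and 277 XUTs. The curve of the 471 lies to the left of the others over most of the range, with medians of 450, 648 and 958 bases.

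A larger share of the set than of the other XUTs lay close to a CUT annotation. The numbers of XUTs, CUTs and NUTs each run in 2 ascending series, read here as the 2 strands. That reading is inferred from the row order and is not stated by the sources. A CUT of the same series lay within 3 rows of 219 of the 471 (46.5%), of 160 of the 709 with similar changes (22.6%) and of 65 of the 277 that rose more without Xrn1 (23.5%). With the directly adjacent row alone, which was chosen after seeing the data, the shares were 29.9, 7.76 and 5.42%.

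Looked at from the other side, 219 of the 444 XUTs near a CUT (49.3%) belonged to the set, against 252 of the 1013 others (24.9%). Median lengths of these 2 classes were 621.5 and 622 bases. The median Mtr4 change was 3.42 near a CUT and 2.63 elsewhere, and the median Xrn1 change was 2.25 and 2.54. Within the set the Mtr4 change was 4.16 near a CUT and 3.77 elsewhere.

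Within every length quartile, the share belonging to the set was higher near a CUT, a description without a test. In the shortest quartile, 73 of 120 XUTs near a CUT (60.8%) and 95 of 246 others (38.6%) belonged to the set. In the next quartiles the shares were 64.7 and 25.7%, then 47.4 and 22.2%. In the longest quartile they were 25 of 106 (23.6%) and 35 of 258 (13.6%).

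**Figure D4:**
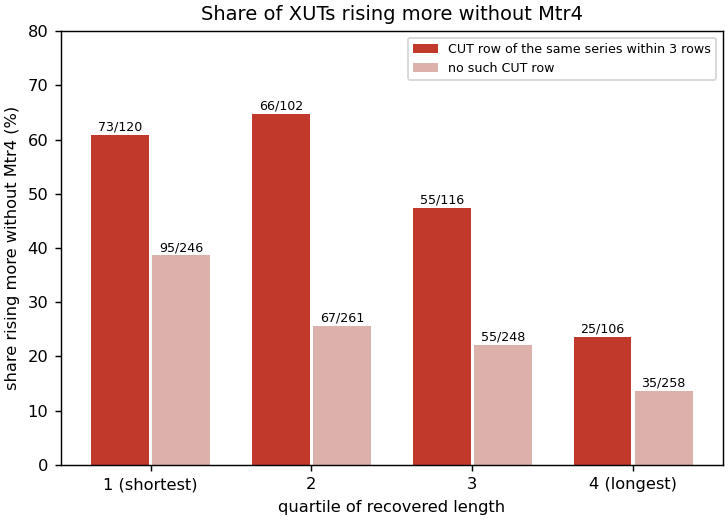
Bars give the percentage of measured XUTs that belong to the 471 (vertical), by quartile of recovered length (horizontal), with a CUT of the same series within 3 rows (dark) or without (light), and numbers above the bars give the counts. In each quartile the dark bar is higher, from 60.8 against 38.6% in the shortest to 23.6 against 13.6% in the longest.

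NUT annotations, which mark transcripts that run on without the termination factor Nrd1, lay within 3 rows of 303 of the 471 (64.3%), 401 of the 709 (56.6%) and 110 of the 277 (39.7%). Only 117 of the 471 (24.8%) had neither a CUT nor a NUT nearby. Small nucleolar RNAs guide modification of ribosomal RNA and are trimmed by the exosome. Counted without regard to series, they lay within 3 rows of 8 XUTs of the set, 8 of the 709 and 7 of the 277. Those in the set were XUT0766, XUT1455, XUT1509, XUT1712, XUT0684, XUT1751, XUT0623 and XUT1149.

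Some XUTs of the set had almost the same read numbers as a neighbouring annotation. Whether the reads themselves are the same was not checked. Of the 240 with a mean of at least 50 reads, 20 had reads within 5% of those of another feature in every library, with a CUT in 8 cases and a NUT in 14, some XUTs matching both. None matched a gene, a snoRNA or another XUT. The pairs with the most reads were XUT0648 with NUT0518 (2347 and 2368 reads over the 10 libraries), XUT0231 with NUT0158 (1684 and 1693), XUT1261 with NUT1074 (1511 and 1519) and XUT0300 with NUT0209 (1297 and 1296). In the 709, 28 of 352 matched, 27 of them a NUT and 1 a CUT, and in the 277, 8 of 192 matched a NUT and none a CUT. For such pairs the RNA cannot be assigned to one annotation.

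The set was not uniform in its Xrn1 change. In 44 XUTs it was below 2-fold, in 253 from 2-fold to under 4-fold and in 174 at least 4-fold. Median lengths were 300, 451 and 476.5 bases, and a CUT lay nearby for 28 (63.6%), 121 (47.8%) and 70 (40.2%). The median Mtr4 change was 3.90, 3.82 and 4.15, with no steady order. Spearman's rho between the changes was 0.19 within the 471, where the rule bounds their difference, and -0.23 over all 1457 measured XUTs.

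XUTs of the set came from all 16 chromosomes. They made up 23.3% of measured XUTs on chromosome VI (7 of 30) and 41.6% on chromosome VIII (32 of 77), with the other chromosomes between these, and 2 of the 3 on the 2-micron plasmid.

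Loss of Dbp2, which the rule did not use beyond the minimum density, was tested with limma against WT. Because the WT libraries also entered the choice of the set, this comparison is not independent of it. By the limma fit with Benjamini-Hochberg adjustment, 405 of the 471 XUTs (86.0%) were higher in dbp2, where 84.8% of all 9680 features were higher, so the share is near the background. Lower in dbp2 were 2 (0.425%), where 5.31% of all features were lower, and 64 passed in neither direction. Lower calls were also few among the 709 (1.55%) and 277 (1.08%) other XUTs and among CUTs (1.12%), against 7.85% of protein-coding genes. A low share of falls was thus not particular to the set. Both dbp2 libraries lay above both WT libraries for 420 of the 471 (88.2% of all features did so). They lay below both for 6 (6.69% of all features), and for 2.96% of the 709 and 1.44% of the 277.

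The median change of the set in dbp2 was 1.15, or 2.22-fold, against 0.95 over all features, 0.81 over protein-coding genes and 1.17 over CUTs. The 709 and 277 other XUTs had medians of 1.32 and 1.38, with 621 (87.6%) and 241 (87.0%) higher. After libraries were set to equal medians of protein-coding genes, here called rescaling, the median change of protein-coding genes moved from 0.81 to 0.02, and 231 of the 471 were higher and 43 lower, with a median of 0.51. On that scale 46.1% of all features were higher and 26.4% lower, against 49.0 and 9.13% of the set. The share higher was 60.4% in the 709, 64.6% in the 277 and 50.3% among CUTs, so the set lay below the other XUTs. The share lower was 7.90, 7.58 and 6.37% there, so few falls were not particular to the set.

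**Figure D5:**
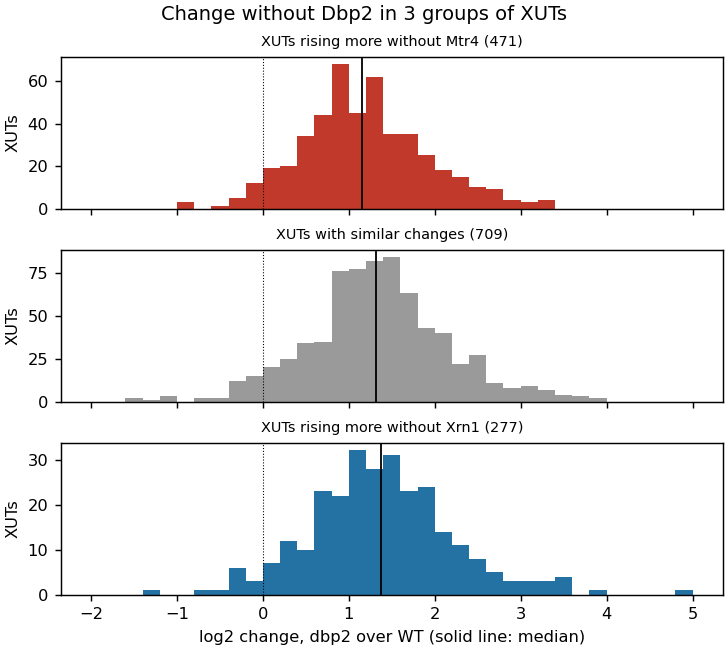
Histograms give the number of XUTs (vertical) by log2 change in dbp2 over WT (horizontal) for the 471, the 709 and the 277 XUTs, with the median as a solid line and no change as a dotted line. The medians are 1.15, 1.32 and 1.38, and the distributions overlap over most of their range.

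XUT0462, at the end of chromosome VIII beside YHR214W, and XUT0420, between the ribosomal protein gene RPS20 and YLF2, had the largest rises in dbp2. XUT0462 went from 0.0516 and 0.0423 in WT to 0.551 and 0.538 in dbp2, which was 10.4-fold (log2 change 3.38 ± 0.22, SE, n = 2 and 2, limma adjusted p = 2.2e-07). XUT0420 went from 0.0479 and 0.0420 to 0.524 and 0.506. That was a 10.2-fold rise in the limma fit (adjusted p = 2.4e-08), and neither XUT overlapped between the groups.

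XUT1258, between TPO2, a polyamine exporter, and CBF2, a kinetochore protein, went from 0.00513 and 0.0137 in WT to 0.146 and 0.144 in dbp2 (3.35 ± 0.28, limma adjusted p = 1.2e-06). Its WT values rest on 2 and 7 reads, so the size of this rise depends on few control reads and on the 0.006 added. XUT0921, between CUR1 and the cell wall gene KRE6, went from 0.0588 and 0.0364 to 0.550 and 0.491 (3.33 ± 0.38, limma adjusted p = 1.2e-05). It had 1 and 0 reads in WT-Dox, against 19 and 11 under Mtr4 depletion, so its place in the set rests on few reads. In XUT0420 and XUT0462 WT-Dox was also well below WT, at 0.00639 and 0.0114, and 0.0109 and 0.00518. Under Mtr4 depletion XUT0420 was at 0.196 and 0.194 and XUT0462 at 0.223 and 0.161, both below dbp2. XUT0462 was then also below its xrn1 libraries (0.284 and 0.381), and its WT-Dox values rest on 5 and 3 reads. XUT0921 was likewise lower under Mtr4 depletion (0.109 and 0.0456) than in xrn1 (0.323 and 0.216).

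The XUTs with the largest difference between Mtr4 and Xrn1 all rose in dbp2, by unequal amounts. XUT1033 was at 0.165 and 0.138 in dbp2, above WT and xrn1 (1.72 ± 0.27, limma adjusted p = 0.00013). XUT1083 was at 0.0665 and 0.0641, the smallest rise of the 8 (0.52 ± 0.13, limma adjusted p = 0.004), and it was at -0.20 after rescaling on protein-coding genes (limma adjusted p = 0.19), where XUT0766 and XUT0029 also lost their calls. XUT1198 was at 0.269 and 0.224, 4.73-fold above WT (limma adjusted p = 4.8e-06), and XUT0984 at 0.139 and 0.162, 4.31-fold above (limma adjusted p = 1.1e-06). In both, dbp2 exceeded xrn1 without overlap.

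XUT0649 rose 6.89-fold in dbp2, to 0.705 and 0.639 (limma adjusted p = 1.4e-08), and the plasmid transcript XUT0927 5.80-fold, to 1.94 and 1.78 (limma adjusted p = 9.4e-09). XUT0467, at 1.18 and 1.11, changed by 0.78 ± 0.06 (limma adjusted p = 8.5e-07), which was below the median of protein-coding genes. For 77 of the 471 (16.3%) both dbp2 libraries lay above both xrn1 libraries. This held for 32 of the 709 (4.5%), none of the 277 and 109 of all 1457 measured XUTs (7.48%). A low Xrn1 change in the rule favours this count, and the share over all features was not computed.

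XUT1394 and XUT1377 were the 2 XUTs of the set that were lower in dbp2. XUT1394, between the kinase gene PTK2 and CBF1, a centromere- and promoter-binding factor, was at 0.0187 and 0.0185 in WT and 0.00665 and 0.00616 in dbp2 (-0.99 ± 0.15, limma adjusted p = 9.9e-05). In tet-MTR4-Dox it was at 0.274 and 0.224 and in WT-Dox at 0.0185 and 0.0195. XUT1377, between MHP1 and the nucleoporin gene NSP1, was at 0.0238 and 0.0204 in WT and 0.0142 and 0.00492 in dbp2 (-0.92 ± 0.25, limma adjusted p = 0.0051). In dbp2 these values rest on 6 and 8 reads, and on 8 and 4.

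The RNA decay genes themselves, a list of 38, are given beside the share of all features called in the same direction. By limma with adjustment over all features, 37 were higher in xrn1, where 95% of all features were higher, and 1 lower (0.868% of features), XRN1 itself. In tet-MTR4-Dox 37 were higher (91.3% of features) and 1 lower (3.26%), MTR4. In dbp2 31 were higher (84.8%) and 2 lower (5.31%). The lower ones were XRN1 (-0.59) and PAT1, an activator of decapping (-0.47 ± 0.09, limma adjusted p = 0.00044). After rescaling on protein-coding genes, 9 of the 38 were higher and 20 lower in xrn1, where 43.4% of all features were higher and 31.8% lower. On that scale 18 were higher and 17 lower in dbp2 (46.1 and 26.4% of features), and 19 and 12 under Mtr4 depletion (63.5 and 23.6%). All 13 exosome genes were higher in each mutant before rescaling. After it, 2 were higher and 7 lower in xrn1, 9 and 3 in dbp2, and 9 and 0 under Mtr4 depletion.

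NRD1, which encodes a subunit of the Nrd1-Nab3-Sen1 termination complex, was at 0.527 and 0.502 in WT-Dox, against 5.58 and 5.57 under Mtr4 depletion. This was a 10.7-fold rise (log2 change 3.42 ± 0.05, limma adjusted p = 3.4e-11), and 2.61 after rescaling. Its partners NAB3 and SEN1 changed by 0.70 and 1.12 there, and by -0.11 (limma adjusted p = 0.023, called lower) and 0.30 after rescaling.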

How the data were processed

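The deposited signal is a table of normalised densities per feature and library, with 5 mean columns. Tools that the submitters' processing notes name, without roles, are Trim Galore, HISAT2 2.2.0, featureCounts 2.0.0, DESeq2 and genome R64. All 108320 values checked are whole reads (tolerance 1e-05) divided by a feature length and a factor per library. ERCC rows reach like levels in all libraries, from which a spike-in scale is inferred but not stated. The XUT set, lists and naming rule were chosen with earlier results of these data known.

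The log2 of density plus 0.006 was fitted with limma (lmFit, eBayes with trend) over all 10 libraries and 9680 features with a mean density of at least 0.034, 1 coefficient per group. Calls use a Benjamini-Hochberg adjusted p under 0.05 over all features. SEs pool the spread of all groups (5 residual, 4.83 prior degrees of freedom). As the unit is not counts, limma with voom weights on recovered reads served as an alternative count-based fit.

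Chromosomes and neighbours were read from row order: of 5960 neighbouring features with RefSeq R64 positions, 5947 ascend (5900 genes and 76 snoRNAs matched). XUT positions and sequences were not used here. Named XUTs are the 8 with the largest difference, and 4 each by Mtr4 change, low Xrn1 change and density without Mtr4. Also named are up to 4 each way in dbp2, 3 each side of the threshold, and 4 matching another feature in read numbers. The decay list is given by group counts. Alternatives were pseudocount, filter, scaling, rule threshold, replicates left out, the replicate block and fits of 2 groups only. Fits ran in limma 3.58.1 under R 4.3.3. Other steps ran in Python 3.11.15 with pandas 2.3.3, numpy 2.4.6 and scipy 1.17.1, and plots in matplotlib 3.10.9.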

Additional observations from a re-analysis of the deposited data

Results flagged for a closer look

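XUT1394 and XUT1377 fell in dbp2, by log2 changes of -0.99 and -0.92, while both of their libraries without Mtr4 lay above the control. They are listed because the direction is opposite in these comparisons. The rise without Mtr4 is fixed by how the set was chosen, so any member lower in dbp2 would be listed, and the difference between the comparisons was not tested.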

How the results depend on the processing

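The set of 471 XUTs became 172 with a 4 times larger minimum density (filter) and 824, all 471 included, after rescaling on protein-coding genes. It ran from 458 to 501 with replicates left out. Members higher in dbp2 (405) became 157 of 172 with the larger filter, and 231 and 207 of 471 after rescaling on protein-coding genes or all features, and ran from 384 to 408 with 1 replicate left out. Those lower (2) became 1, 43 and 55, and ran from 2 to 6. These counts stand beside 84.8% of all features higher and 5.31% lower in dbp2 in the main fit. After rescaling on protein-coding genes the shares of all features were 46.1 and 26.4%. The median dbp2 change (1.15) became 1.32 and 0.75 with a 4 times smaller and larger pseudocount, 1.26 with the larger filter, 0.51 and 0.38 after the rescalings and 1.33 by voom, and ran from 1.11 to 1.17 with replicates left out. Over all features, rescaling on protein-coding genes gave 4199 higher and 3079 lower in xrn1, 4465 and 2556 in dbp2, and 2285 lower in tet-MTR4-Dox. Rescaling on all features gave 3874 and 3370, 3678 and 3144, and 4374 and 4254. Features lower in xrn1 ran from 49 to 103 with replicates left out. Decay genes higher and lower were 9 and 20 in xrn1, 18 and 17 in dbp2 and 19 and 12 in tet-MTR4-Dox on the first scale, and 8 and 21, 13 and 18, and 3 and 29 on the second. Read numbers matching another feature were found for 8 and 32 XUTs at 2 and 10% in place of 5%. XUT1083 (-0.20 and -0.34), XUT0865 (-0.26 and -0.39) and XUT0467 (-0.013 and -0.16) turned negative in dbp2 under the rescalings, with limma adjusted p of 0.19, 0.048 and 0.75 in that order on the first scale and 0.043, 0.007 and 0.0073 on the second. The cause of each change was not tested. Replicate numbers did not pair the libraries (correlations -0.079 to 0.045). With the replicate block, 407 members were higher and 3 lower in dbp2, and no call of a named XUT changed. The median length was 729 bases for XUTs with at least 50 mean reads, a setting added after seeing the data. Median depths of 8 to 15 reads in the wild types limit single XUTs.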
